A study of Mus musculus with 10 samples.

Results

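The dorsal inhibitory neuron identity genes were followed in RNA of the lumbar spinal cord of single mouse embryos at E12.5. They are 10 named genes, chosen by role and not by value, of 54146 genes counted: the transcription factors *Pax2*, *Pax8*, *Lbx1*, *Lhx1* and *Lhx5*, the synthesis enzymes *Gad1* and *Gad2*, and the transporters *Slc32a1*, *Slc6a5* and *Slc6a11*. All 10 were found in the count table by their Ensembl identifier, and all 10 were among the 19773 genes that passed the filter on low counts. The 10 embryos, 5 controls and 5 labelled *Dot1l*-cKO, came from 2 litters. Litter 1 held 3 controls of the genotype +/+; Dot1l fl/fl and 3 *Dot1l*-cKO embryos, and litter 2 held 2 controls of the genotype +/+; Dot1l fl/+ and 2 *Dot1l*-cKO embryos. Every *Dot1l*-cKO embryo was Wnt1cre2/+; Dot1l fl/fl. All embryos were of the strain B6.Cg-E2f1Tg(Wnt1-cre)2Sor/J and carried at least 1 floxed allele of *Dot1l*, the gene of a histone methyltransferase. The Wnt1 promoter drives Cre in the dorsal neural tube and the neural crest. In the lumbar cord the study saw the histone mark of DOT1L reduced mostly dorsally, and it proposed that ventral cells might also be affected. By the labels the cords were frozen with their dorsal root ganglia attached. Because no control carried the transgene, the effect of Cre or of its insertion at *E2f1* cannot be told apart from the loss of *Dot1l*.

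In the dorsal spinal cord, the neurons called dI4 and later dILA take up an inhibitory fate, while their neighbours dI5 and dILB become excitatory. PTF1A in dividing precursors switches on *Pax2*, *Lhx1* and *Lhx5* in the inhibitory daughters, and LBX1 sets both classes apart from the more dorsal ones. These neurons make GABA with the enzymes GAD1 and GAD2, load GABA and glycine into vesicles with the transporter encoded by *Slc32a1*, and take transmitter back up through carriers of the SLC6 family. Several of these genes are also used by inhibitory neurons of the ventral cord, so that the RNA of whole lumbar cord sums dorsal and ventral sources. In such bulk samples, fewer cells of a type and less RNA per cell cannot be told apart.

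RefSeq start sites of GRCm38.p6 gave windows of 300 bases, 250 before to 50 after the start, for 8 of the 10 genes and 11 windows in all. Of these, 3 are printed, from the strand of the gene and in the direction of transcription, because these genes were the ones whose values the account below turns on, a choice made after their values were seen. The *Lhx1* window is chr11:84525485-84525784 on the minus strand, that of *Slc32a1* is chr2:158610508-158610807 on the plus strand and that of *Slc6a11* is chr6:114130991-114131290 on the plus strand. Capitals mark the E-box CANNTG, the core letters read by bHLH factors such as PTF1A, searched on both strands, which are the same for this motif.
Lhx1: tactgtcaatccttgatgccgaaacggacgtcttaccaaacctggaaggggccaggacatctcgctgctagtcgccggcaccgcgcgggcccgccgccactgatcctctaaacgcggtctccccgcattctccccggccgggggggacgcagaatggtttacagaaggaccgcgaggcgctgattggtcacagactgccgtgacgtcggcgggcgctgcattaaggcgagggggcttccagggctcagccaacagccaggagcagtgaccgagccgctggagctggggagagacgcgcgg
Slc32a1: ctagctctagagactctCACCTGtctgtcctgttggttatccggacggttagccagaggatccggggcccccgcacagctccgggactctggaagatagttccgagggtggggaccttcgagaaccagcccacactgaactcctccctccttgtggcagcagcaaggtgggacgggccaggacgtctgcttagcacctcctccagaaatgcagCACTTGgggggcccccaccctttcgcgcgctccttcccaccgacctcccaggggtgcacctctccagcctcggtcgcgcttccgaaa
Slc6a11: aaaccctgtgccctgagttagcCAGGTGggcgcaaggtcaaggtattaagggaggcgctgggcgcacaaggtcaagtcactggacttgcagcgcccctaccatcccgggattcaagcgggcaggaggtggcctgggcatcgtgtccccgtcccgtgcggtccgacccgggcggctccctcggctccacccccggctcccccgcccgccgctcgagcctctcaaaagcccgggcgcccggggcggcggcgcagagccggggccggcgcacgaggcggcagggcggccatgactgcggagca

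The *Lhx1* window held no E-box, that of *Slc32a1* held 2 and that of *Slc6a11* held 1. Of the 11 windows, 9 held at least 1 E-box, against 72.3% of the 32851 RefSeq windows of the same length. The letters TGGGAA, found on either strand in 25.6% of all windows and matching part of the site of the PTF1A partner RBPJ, were in 3 of the 11, those of *Slc32a1*, *Slc6a5* and the first *Pax2* start. The homeodomain core TAATTA was in 5.29% of all windows and in 0 of the 11. The 11 windows of these 8 genes held a median of 17 CpG dinucleotides, against 7 over all windows. A match is a description of letters and not a binding site.

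Total counts lay between 40949585 and 68928443 per embryo, and the lowest count of any identity gene in any embryo was 604, for *Slc6a11*. Levels are given as CPM, the count of a gene scaled to a fixed library total, after TMM scaling. The whole-gene count of *Dot1l* was no lower in the *Dot1l*-cKO embryos than in the controls. Its level was 94.0 ± 7.85 CPM in controls and 105.6 ± 6.18 CPM in *Dot1l*-cKO (SD, n = 5 each), with a log2 fold change of 0.17 and an adjusted p of 0.13 by edgeR. Reads over the deleted part alone were not analysed here, so this count does not check the labels. Both *Dot1l*-cKO embryos of litter 2 held the Y-linked *Ddx3y*, at 46.7 and 41.5 CPM, while the other 8 embryos held at most 0.242 CPM, and the X-inactivation RNA *Xist* was at 6.00 and 6.79 CPM in the former against at least 499 CPM in the latter. Within litter 2, sex and genotype therefore cannot be told apart. Between the litters, 6858 genes passed the edgeR test, so litter was a term in every genotype comparison, and values are given within each litter.

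Compared per kilobase of exon, 4 of the 5 transcription factor genes were the most abundant of the 10, with *Pax8* further down. *Lhx1* stood at 40.2 ± 7.15 CPM per kb and *Lhx5*, its close relative among LIM homeodomain factors, at 25.1 ± 3.66 CPM per kb (SD, n = 10 throughout). *Lbx1* followed at 18 ± 1.74 and *Pax2* at 15.8 ± 2.84 CPM per kb, and these neighbours differed by less than the larger of their SDs. The vesicular transporter gene *Slc32a1* was at 12.3 ± 1.53 and *Gad2* at 11.1 ± 1.08 CPM per kb, again within the larger SD. *Pax8* was at 8.71 ± 0.986, the glycine carrier gene *Slc6a5* at 7.68 ± 0.556, the GABA carrier gene *Slc6a11* at 7.34 ± 3.87 and *Gad1* at 5.03 ± 0.648 CPM per kb. *Slc6a11* did not differ beyond its spread from either neighbour in this order, because its level ran from 3.03 to 14.8 CPM per kb. The order is over the sum of litters and genotypes and carries no test.

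The identity genes lie on chromosomes 2, 5, 6, 7, 11 and 19 of GRCm38. *Pax8* (ENSMUSG00000026976.15), *Gad1* (ENSMUSG00000070880.10), *Gad2* (ENSMUSG00000026787.3) and *Slc32a1* (ENSMUSG00000037771.11) are all on chromosome 2, which also holds *E2f1*, the labelled site of the Wnt1-cre transgene. *Slc32a1*, at chr2:158610767-158615748, is the nearest of them, 4.04 Mb from *E2f1*. *Slc6a11* (ENSMUSG00000030307.8) spans chr6:114131241-114249952. Exons of a gene on the opposite strand cover 24.9% of the exon length of *Slc32a1* (*Gm14205*), 6.06% of that of *Pax8* (*Gm13415*) and 2.57% of that of *Lhx5* (*Gm27199*). Whether the counting used strand is not given in the sources used here, so reads of such pairs cannot be told apart where they overlap. *Gm14205* itself held 5 to 15 reads per embryo, against at least 1309 for *Slc32a1*.

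The study set out to learn what DOT1L does in the developing neural tube, and the comparison of *Dot1l*-cKO with control littermates addresses that question for these genes. With litter in the model, 0 of the 10 identity genes passed the edgeR test, while 2.99% of all genes did. At an unadjusted p below 0.05 there were 6 of the 10, namely *Pax2*, *Pax8*, *Lbx1*, *Gad2*, *Slc32a1* and *Slc6a11*, against 21.7% of all genes. DESeq2 in the same design called 2, *Slc32a1* with an adjusted p of 0.028 and *Slc6a11* with an adjusted p of 0.015, and it called 8.3% of the genes it adjusted. The fitted log2 fold change was above 0 for 8 of the 10 genes, with *Gad1* and *Slc6a5* below 0, against 48% of all genes above 0. The median over the 10 genes was 0.14 on the log2 scale and that over all tested genes -0.0077. In litter 1, the *Dot1l*-cKO embryos lay above the controls without overlap for 3 of the 10 genes (*Lbx1*, *Gad2* and *Slc6a11*), against 9.1% of all genes. In litter 2 they did so for 8 of the 10, against 24.2% of all genes, and lay below the controls for the other 2, *Gad1* and *Slc6a5*, against 27.5%. In both litters at once, 3 of the 10 lay above without overlap, against 3.8% of all genes, and 0 lay below, against 4.15%.

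**Figure D1:**
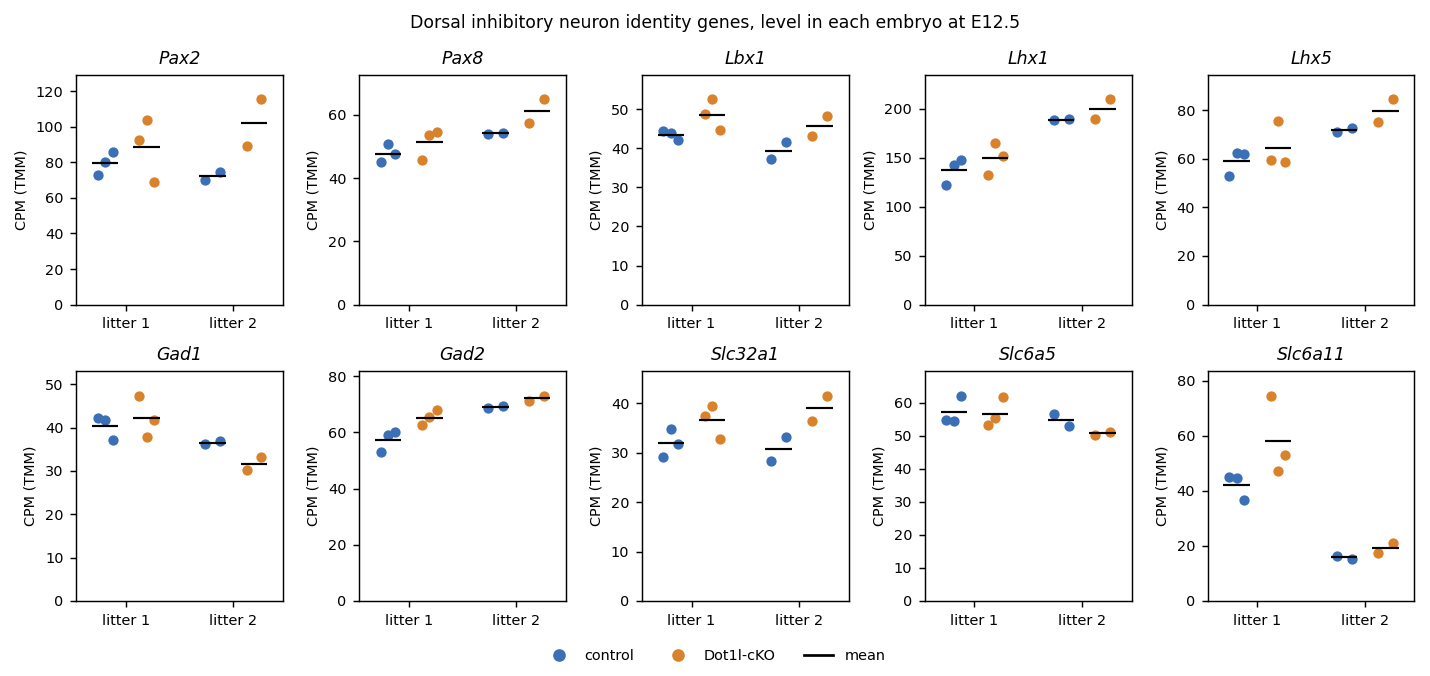
Level of each dorsal inhibitory neuron identity gene in each embryo, in CPM after TMM scaling on a linear axis from 0, by litter, with controls in blue and Dot1l-cKO embryos in orange and a black bar at the mean of each group of embryos. Slc6a11 is between 36.6 and 74.6 CPM in litter 1 and between 15.3 and 21 CPM in litter 2, while Lhx1 is higher in all 4 embryos of litter 2.

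Among the transcription factors, *Pax2*, which keeps dI4 and dILA cells on the GABAergic path, was at 72.9, 80.2 and 85.7 CPM in the litter 1 controls and at 92.3, 104 and 69.2 CPM in the *Dot1l*-cKO embryos of that litter. The litter 2 values were 70.1 and 74.4 CPM in controls and 89.2 and 116 CPM in *Dot1l*-cKO. All *Dot1l*-cKO embryos but embryo 7 of litter 1, which had the lowest level of all 10 embryos, were above every control. The log2 fold change of *Pax2* was 0.29 (SE 0.107, 95% interval 0.062 to 0.52) with an adjusted p of 0.14. With 1 embryo left out in turn it ran from 0.20 to 0.39 with adjusted p-values of 0.012 to 0.34, and 1 of the 10 fits passed, that without embryo 7 of litter 1.

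*Lbx1*, the homeobox gene that marks dI4 to dI6 and their late-born dILA and dILB relatives, was at 44.4, 43.8 and 42.3 CPM in the litter 1 controls and at 48.8, 52.6 and 44.6 CPM in *Dot1l*-cKO. In the controls of litter 2 it was at 37.2 and 41.6 CPM, and at 43.2 and 48.4 CPM in *Dot1l*-cKO. The genotypes were apart in both litters, although the gap in litter 1 was narrow. Its log2 fold change was 0.18 (SE 0.0577, 95% interval 0.060 to 0.31) with an adjusted p of 0.089. Over the 10 fits that each leave out 1 embryo it ran from 0.15 to 0.22 with adjusted p-values of 0.033 to 0.25, and 1 passed, again that without embryo 7 of litter 1.

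*Pax8*, a relative of *Pax2* in the same neurons, ran from 44.9 to 50.7 CPM in the litter 1 controls and from 45.6 to 54.5 CPM in *Dot1l*-cKO, with overlap. Both litter 2 controls were at 54.1 CPM, below 57.5 and 64.9 CPM in *Dot1l*-cKO. *Lhx1* ran from 122 to 147 CPM in the litter 1 controls and from 133 to 165 CPM in *Dot1l*-cKO. The embryos of litter 2 were at 188 and 189 CPM in controls and at 189 and 209.7 CPM in *Dot1l*-cKO, so that litter separated the embryos and genotype hardly did. *Lhx5* ran from 52.7 to 62.2 CPM in the litter 1 controls and from 58.5 to 75.5 CPM in *Dot1l*-cKO. Its litter 2 controls, at 71 and 72.8 CPM, were below 75.1 and 84.5 CPM in *Dot1l*-cKO. The log2 fold change was 0.13 for *Pax8* (95% interval 0.0054 to 0.26, adjusted p = 0.21), 0.11 for *Lhx1* (-0.031 to 0.25, adjusted p = 0.36) and 0.14 for *Lhx5* (-0.019 to 0.29, adjusted p = 0.30). With 1 embryo left out, the value of *Lhx1* ran from 0.066 to 0.15, the lowest without *Dot1l*-cKO embryo 3 and nearly as low without control embryo 4, both of litter 1, and that of *Lhx5* from 0.070, without the same *Dot1l*-cKO embryo 3, to 0.17. The intervals of the full fit leave room for a rise of up to about the size fitted for *Pax2* and none for a fall of that size.

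Neither enzyme gene of GABA synthesis passed for genotype. *Gad2*, whose product sits at nerve terminals, was at 52.9, 59.0 and 60.1 CPM in the litter 1 controls and at 62.5, 65.4 and 67.9 CPM in *Dot1l*-cKO. *Gad2* in litter 2 was at 68.8 and 69.6 CPM in controls and at 71.2 and 73.1 CPM in *Dot1l*-cKO. Within each litter every *Dot1l*-cKO embryo was above every control, with a log2 fold change of 0.14 (SE 0.0493, 95% interval 0.031 to 0.24) and an adjusted p of 0.13. *Gad1*, whose product supplies most GABA in the cell body, was at 42.2, 41.7 and 37.1 CPM in the litter 1 controls and at 47.4, 37.8 and 41.7 CPM in *Dot1l*-cKO, with overlap. In litter 2 it was at 36.2 and 36.8 CPM in controls and at 30.2 and 33.2 CPM in *Dot1l*-cKO, the lowest values of the 10 embryos. Its log2 fold change was -0.038 with litter in the model (SE 0.0739, 95% interval -0.20 to 0.12, adjusted p = 0.81), 0.071 in litter 1 and -0.20 in litter 2.

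*Slc32a1*, whose product fills synaptic vesicles with GABA and glycine, was at 29.2, 34.9 and 31.8 CPM in the litter 1 controls and at 37.4, 39.5 and 32.8 CPM in *Dot1l*-cKO. For the embryos of litter 2 it was at 28.4 and 33.1 CPM in controls and at 36.4 and 41.5 CPM in *Dot1l*-cKO. As for *Pax2*, embryo 7 of litter 1 was the lowest of the *Dot1l*-cKO embryos, and for *Slc32a1* it was the only 1 of them inside the range of the controls. The log2 fold change of *Slc32a1* was 0.25 (SE 0.0741, 95% interval 0.094 to 0.41), 1.19-fold, with an adjusted p of 0.074 by edgeR. When 1 embryo was left out the value lay between 0.21 and 0.30 with adjusted p-values of 0.024 to 0.21, and 1 of the 10 fits passed, the one without embryo 7 of litter 1.

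*Slc6a11*, the gene of the GABA carrier GAT-3, which in the mature cord is known mainly from astrocytes, had the largest fitted genotype difference of the 10. It was at 45.2, 44.6 and 36.6 CPM in the litter 1 controls and at 74.6, 47.1 and 52.9 CPM in *Dot1l*-cKO. Litter 2 was far lower, at 16.4 and 15.3 CPM in controls and at 17.3 and 21 CPM in *Dot1l*-cKO. *Dot1l*-cKO lay above control in each litter, while every embryo of litter 2 was below every embryo of litter 1. Its log2 fold change was 0.39 (SE 0.113, 95% interval 0.15 to 0.64), 1.31-fold, with an adjusted p of 0.072 by edgeR. Leaving out 1 embryo gave values from 0.26, without embryo 2 of litter 1, the highest of the 10, to 0.46, without embryo 3 of litter 1, the lowest of the litter 1 *Dot1l*-cKO embryos. The adjusted p-values of these 10 fits ran from 0.044 to 0.18, and only the fit without embryo 3 passed. *Slc6a5*, whose product GlyT2 returns glycine to inhibitory terminals, ran from 54.5 to 62.2 CPM in the litter 1 controls and from 53.2 to 61.9 CPM in *Dot1l*-cKO. It was at 56.6 and 52.9 CPM in the litter 2 controls and at 50.4 and 51.3 CPM in *Dot1l*-cKO, with a log2 fold change of -0.048 (95% interval -0.17 to 0.073, adjusted p = 0.66). Of the 10 genes it had the smallest spread relative to its level.

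**Figure D2:**
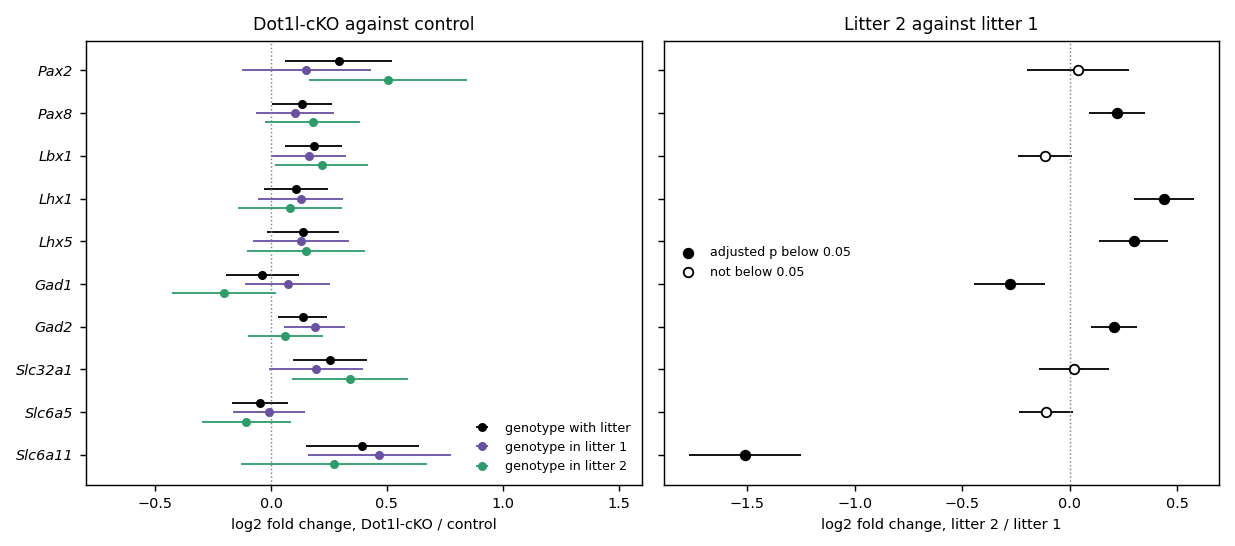
Fitted log2 fold change of each identity gene with its 95% interval from edgeR, on the left for Dot1l-cKO against control with litter in the model and within each litter, and on the right for litter 2 against litter 1, where filled points have an adjusted p below 0.05. On the left 8 of the 10 black points lie above 0 and none passes the test, while on the right 6 points pass and Slc6a11 stands alone at -1.51.

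Fitted within each litter from a model with 4 group means, 0 of the 10 genes passed in litter 1, where 0.612% of all genes did, and 0 in litter 2, where 0.202% did. At an unadjusted p below 0.05 there were 2 in litter 1, *Gad2* and *Slc6a11*, against 15.4% of all genes, and 3 in litter 2, *Pax2*, *Lbx1* and *Slc32a1*, against 17.1%. DESeq2 called 1 in each, *Slc6a11* in litter 1, where it called 3.98% of the genes it adjusted, and *Pax2* in litter 2, where it called 3.58%. On the log2 scale *Pax2* differed by 0.15 within litter 1 and by 0.50 within litter 2, and *Slc6a11* by 0.47 and 0.27, respectively. The difference between the litters in the genotype effect was tested as an interaction, and 0 of the 10 genes passed it by edgeR or by DESeq2, against 0.0101% of all genes by edgeR and 0.552% of the genes DESeq2 adjusted. At an unadjusted p below 0.05 there were 0 of the 10 by edgeR, against 8.19% of all genes. The widest intervals of that difference were those of *Slc6a11*, -0.70 to 0.31, and of *Pax2*, -0.087 to 0.79 on the log2 scale, and that of *Gad1* was -0.56 to 0.017. In litter 2 these values set *Dot1l*-cKO embryos with Y-linked counts against controls without them, as given above.

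The labels give no aim for the comparison of the litters, which is a term of the model. For litter 2 against litter 1, with genotype in the model, 6 of the 10 genes passed the edgeR test, against 34.7% of all genes. *Pax8*, *Lhx1*, *Lhx5* and *Gad2* were higher in litter 2, 4 of the 10 against 16.9% of all genes, and *Gad1* and *Slc6a11* were lower, 2 of the 10 against 17.8%. The litters did not overlap for *Lhx1*, *Gad1*, *Gad2* and *Slc6a11*, 4 of the 10 against 23.4% of all genes. DESeq2 called the same 6 genes and 35.7% of the genes it adjusted. *Slc6a11* fell from 50.1 ± 13.1 CPM in litter 1 (SD, n = 6) to 17.5 ± 2.47 CPM in litter 2 (SD, n = 4), 2.85-fold lower, with a log2 fold change of -1.51 (SE 0.122) and an adjusted p of 1.5e-06. *Lhx1* rose from 143 ± 14.9 to 194 ± 10.4 CPM, 1.36-fold, with a log2 fold change of 0.44 (SE 0.0654) and an adjusted p of 1.6e-04.

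*Lhx5* rose from 61.7 ± 7.56 to 75.8 ± 5.98 CPM (log2 fold change 0.30, adjusted p = 0.0064) and *Pax8* from 49.5 ± 4.09 to 57.7 ± 5.12 CPM (0.22, adjusted p = 0.012). Of the enzyme genes, *Gad2* rose from 61.3 ± 5.28 to 70.7 ± 1.93 CPM (0.21, adjusted p = 0.0053), and *Gad1* fell from 41.3 ± 3.68 to 34.1 ± 3.06 CPM (-0.28, adjusted p = 0.011). *Pax2* (log2 fold change 0.039, 95% interval -0.20 to 0.27), *Slc32a1* (0.019, -0.14 to 0.18), *Lbx1* (-0.11, -0.24 to 0.012) and *Slc6a5* (-0.11, -0.24 to 0.014) did not pass. Among the 5 controls alone, 3 of the 10 passed, *Lhx1* at 0.46, *Gad2* at 0.27 and *Slc6a11* at -1.41, against 24.2% of all genes. DESeq2 called 4, adding *Lhx5* with an adjusted p of 0.038, and 29.7% of the genes it adjusted. *Gad2* no longer passed this comparison by edgeR when either control of litter 2 was left out. Since the litter 1 controls carry 2 floxed alleles and the litter 2 controls carry 1, litter and allele number cannot be told apart among controls. Without both *Dot1l*-cKO embryos of litter 2, a fit on 2 fewer embryos in which 21.7% of all genes passed, *Pax8* was at 0.18 (adjusted p = 0.17), *Lhx5* at 0.29 (adjusted p = 0.087) and *Gad1* at -0.14 (adjusted p = 0.32) by edgeR. Leaving out 1 of these embryos already took *Gad1* to an adjusted p of 0.053 by edgeR (without embryo 4) and *Pax8* to 0.067 (without embryo 6).

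Markers of other cells moved with litter. The 5 neural progenitor markers (*Sox2*, *Pax6*, *Nes*, *Hes5* and *Vim*) all passed as higher in litter 2, against 16.9% of all genes, and their summed level ran from 1664 to 2090 CPM in the embryos of litter 1 and from 2607 to 2775 CPM in those of litter 2. Since the sum did not overlap between the litters, it and litter cannot be told apart. Of 8 sensory neuron markers of the dorsal root ganglia, 5 passed as lower in litter 2, against 17.8% of all genes, with a summed level of 327 to 517 CPM in litter 1 and of 170 to 250.1 CPM in litter 2. Within litter 1 the ganglion sum was lower in *Dot1l*-cKO, at 327 to 394 against 443 to 517 CPM, and within litter 2 it was higher, at 215 to 250.1 against 170 to 173 CPM. With it as a covariate of genotype, *Pax2* and *Slc32a1* passed, with adjusted p-values of 0.034 and 0.041, and 6.01% of all genes did. Of the 8 ganglion markers, 4 had a genotype log2 fold change above 0, and 1 passed by edgeR, *Runx3* (-0.71, adjusted p = 0.048). Of 10 pan-neuronal genes, 7 were above 0, and 1 passed by edgeR, the neurofilament gene *Nefl* (-0.22, adjusted p = 0.028). As lower, 1.09% of all genes passed. Of 5 neural crest glia markers, 1 passed as higher, against 1.9% of all genes. The 4 Y-linked genes *Ddx3y*, *Kdm5d*, *Uty* and *Eif2s3y* also passed as higher.

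The other genes of the pathway were read from lists of fixed membership. Of 14 other transcription factors and surface genes of inhibitory specification, 1 passed for genotype by edgeR and by DESeq2, as higher in *Dot1l*-cKO, against 1.9% of all genes by edgeR and 4.74% by DESeq2. It was *Gbx1*, a homeobox gene of dI4-derived dorsal horn cells. *Gbx1* was at 34.1, 33.8 and 31.2 CPM in the litter 1 controls and at 49.8, 39.4 and 47.7 CPM in *Dot1l*-cKO, and at 19.7 and 20.1 against 31.1 and 27.1 CPM in litter 2. Every *Dot1l*-cKO embryo was above every control of its litter, with a log2 fold change of 0.50 (SE 0.0690) and an adjusted p of 0.0046. The median of the 14 genes was 0.089. For litter, 10 of the 14 passed as higher in litter 2, against 16.9% of all genes, and 2 as lower, against 17.8%, with a median of 0.51 on the log2 scale against -0.016 over all tested genes. Those higher include *Ptf1a*, the selector of dI4 and dILA, at 1.67, and *Gsx2*, a homeobox gene of dorsal precursors, at 1.45. *Gbx1* went the other way, at -0.69.

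Of 15 other genes of GABA and glycine handling, 0 passed for genotype as higher in *Dot1l*-cKO by edgeR, against 1.9% of all genes. DESeq2 called 1 as higher, against 4.74% of the genes it adjusted. At an unadjusted p below 0.05 by edgeR 4 were higher, against 11.1% of all genes. As lower, 1 passed by either tool, against 1.09% of all genes by edgeR and 3.56% by DESeq2, with 3 at an unadjusted p below 0.05, against 10.6%. The fitted values of the 15 genes ran from -0.23 to 0.19, with a median of 0.087. For litter, 3 of the 15 passed as higher in litter 2, against 16.9% of all genes, namely *Shmt1*, *Shmt2* and *Gldc*, whose enzymes make or break down glycine. Lower were 8 of the 15, against 17.8% of all genes, among them the carrier genes *Slc6a13* at -1.52, *Slc6a12* at -1.89 and *Slc6a9* at -0.56, as was *Slc6a11*. *Slc6a12* held only 3 to 32 counts per embryo. *Slc12a5*, the chloride exporter gene of maturing neurons, was lower as well, at -0.48. The 7 genes of ventral inhibitory classes gave 0 calls for genotype by edgeR or DESeq2, with 2 at an unadjusted p below 0.05, both lower, against 10.6% of all genes, and a median of 0.058. For litter 5 of the 7 were higher, against 16.9% of all genes, and 1, *Prdm12*, was lower, against 17.8%.

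Of 4 inhibitory peptide genes and *Nos1*, 2 passed by edgeR as higher in *Dot1l*-cKO, against 1.9% of all genes, and 3 by DESeq2, against 4.74%. *Nos1*, the neuronal nitric oxide synthase gene, had a log2 fold change of 0.51 (SE 0.0896, adjusted p = 0.017), and *Pnoc*, the nociceptin precursor gene, had 0.37 (SE 0.0718, adjusted p = 0.026). *Pnoc* ran from 17.9 to 22.3 CPM in all controls and from 23.2 to 29.6 CPM in all *Dot1l*-cKO embryos, without overlap across the litters. The median of the 5 genes was 0.37. For litter, 4 of the 5 passed as lower in litter 2, against 17.8% of all genes, with *Gal*, the galanin gene, at -2.47. Of 7 genes of the excitatory dI5 and dILB neighbours, 2 passed by edgeR as higher in *Dot1l*-cKO, against 1.9% of all genes. They were *Lmx1b*, the selector gene of these neighbours, and *Prrxl1*, at 0.36 and 0.32 with adjusted p-values of 0.032 and 0.048. The median of the 7 was 0.36. DESeq2 called 4 of the 7, all higher, against 4.74% of the genes it adjusted. Lower in litter 2 were 3 of the 7, against 17.8% of all genes, with a median of -0.40.

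**Figure D3:**
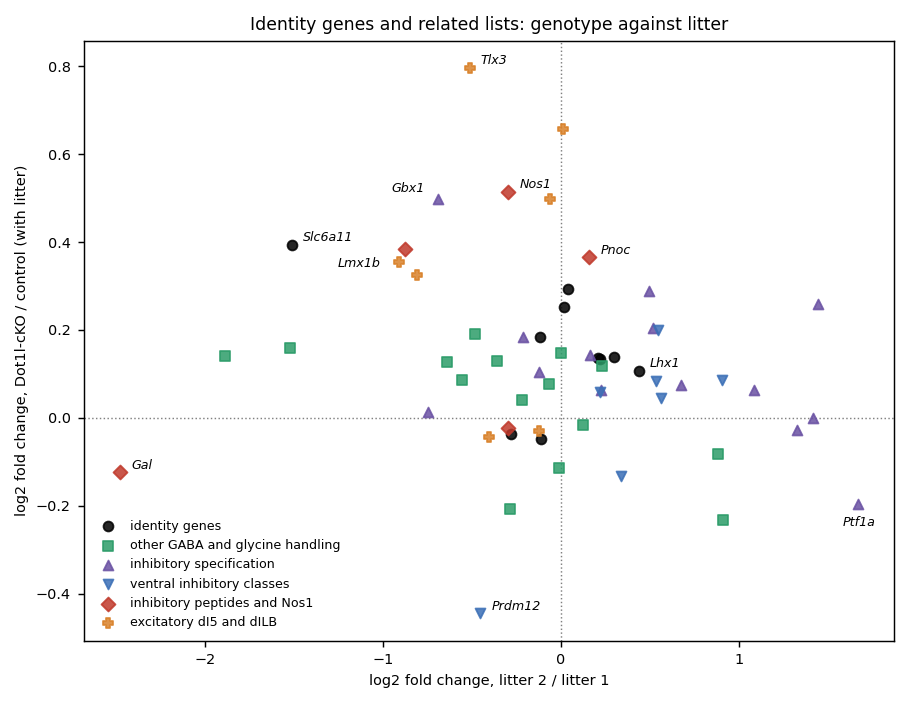
Fitted log2 fold change of each gene for litter 2 against litter 1 (x axis) and for Dot1l-cKO against control with litter in the model (y axis), by list, with the identity genes as black circles. The identity genes span -0.048 to 0.39 for genotype and -1.51 to 0.44 for litter, and the inhibitory specification genes reach 1.67 for litter at Ptf1a.

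The balance of pairs of genes was taken as a log2 ratio of their counts within an embryo, which no scaling between embryos changes, and tested by exact two-sided permutation of genotype within litters (120 arrangements, smallest possible p 0.017), with p-values adjusted over the 4 ratios. The ratio of *Slc32a1* to *Slc17a6*, the vesicular glutamate transporter gene of excitatory neurons, was -2.35, -2.08 and -2.18 in the litter 1 controls and -2.0, -1.77 and -2.13 in *Dot1l*-cKO. In litter 2 it was -1.93 and -1.79 in controls and -1.53 and -1.41 in *Dot1l*-cKO. Every *Dot1l*-cKO embryo of litter 2 was above the controls, and in litter 1 embryo 7 was among them. The mean difference was 0.30, with p = 0.033 and an adjusted p of 0.13 by exact permutation. The cords carried their ganglia, whose summed markers differed between the genotypes within each litter, in opposite directions. What share of the *Slc17a6* RNA came from the ganglia was not tested.

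*Gad2* to *Gad1* differed by 0.18 (p = 0.12, adjusted p = 0.23 by exact permutation), with ranges of 0.33 to 0.70 in the litter 1 controls and 0.40 to 0.79 in *Dot1l*-cKO, and of 0.92 to 0.93 against 1.14 to 1.24 in litter 2. *Lhx5* to *Lhx1* differed by 0.027 (p and adjusted p = 0.67 by exact permutation), with embryo 7 of litter 1 at -1.37, the lowest of its litter, and the controls of litter 2 at -1.41 and -1.38. *Pax2* to *Lmx1b*, the markers of the inhibitory and excitatory dorsal fates, differed by -0.080 (p = 0.62, adjusted p = 0.67 by exact permutation). It ran from -0.77 to -0.056 in litter 1 and from 0.29 to 0.69 in litter 2, so that litter and not genotype separated the embryos. With 1 embryo left out, the difference in the ratio of *Slc32a1* to *Slc17a6* ran from 0.25 to 0.35, with adjusted p-values of 0.033 to 0.27 by exact permutation. That of *Lhx5* to *Lhx1* ran from 0.0048 to 0.072, with adjusted p-values of 0.033 to 0.97 by exact permutation. For each ratio 1 of the 10 passed, that without embryo 7 of litter 1.

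**Figure D4:**
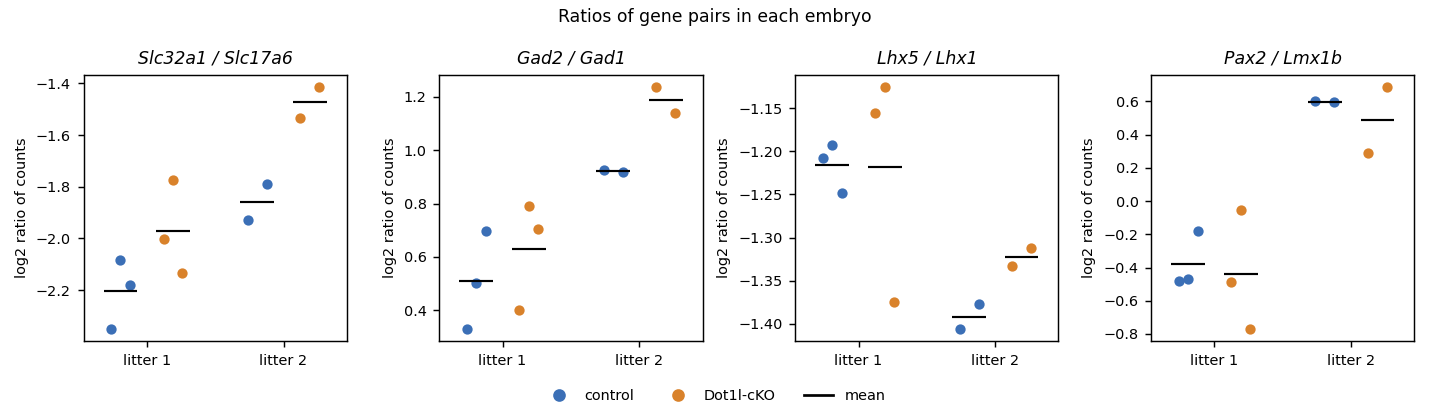
Log2 ratio of the counts of 4 gene pairs in each embryo, by litter, with controls in blue, Dot1l-cKO embryos in orange and a black bar at the mean of each group of embryos. The y axes do not start at 0. The ratio of Slc32a1 to Slc17a6 is between -1.53 and -1.41 in the Dot1l-cKO embryos of litter 2 and at or below -1.77 in the other 8 embryos.

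By the mean Pearson r of their log2 CPM with the 10 identity genes over the 10 embryos, the 5 genes most like them were *Gm13375*, *B9d2*, *Rab37*, *Pheta1* and *Maz*, with mean r between 0.41 and 0.42. For each of these the r with single identity genes ran from below -0.34 to above 0.77, so that none of these 5 followed all 10. The embryos share litter and genotype, which enter every r.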

How the data were processed

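RNA of 10 single lumbar spinal cords was sequenced as poly(A) libraries made with a NEBNext Ultra kit. Per the methods of the study, the authors trimmed the reads with TrimGalore, aligned them to mm10 with STAR and counted them per gene with featureCounts, using snakePipes with default parameters. The deposited values are raw counts per gene, without normalization. The strand setting is not given in the sources used here. Gene names and positions came from GENCODE M21 on GRCm38, the same build as mm10, which matched 54079 of 54146 identifiers.

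Counts were analysed in R 4.3.3 with edgeR 4.0.16 (TMM, the default expression filter with a minimum count of 10, quasi-likelihood test with package defaults, Benjamini-Hochberg threshold 0.05), with litter and genotype as terms, or with 4 group means for effects within a litter, the interaction and litter among controls. The p-values of these edgeR fits were adjusted over the 19773 genes tested. Those of DESeq2, of the ratios and of the alternative fits were adjusted over their own sets. The study used DESeq2, which (1.42.0), like limma-voom (3.58.1), was run as an alternative. The SE of a log2 fold change was derived from the F statistic (absolute change over root F). Log2 ratios used a pseudocount of 0.5 counts. Scripts were tested on simulated data. The counts of the 8 pairs of embryos of the same litter and genotype differed beyond sampling noise (a mean chi-square of 9.31 to 26.2 over genes), so each embryo is 1 replicate, and litter and embryo numbers were read from the labels.

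The 10 identity genes and the lists were chosen with earlier results of these data known. For genotype with litter in the model and for litter, all 10 are named, and elsewhere only some of them. The rule also names list genes that passed for genotype (at most 5 per list, by size), the genes of the ratios and the 5 most alike genes. The litter values of other list genes were chosen after they were seen. Some genes that this rule names are not reported here.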

Additional observations from a re-analysis of the deposited data

How the results depend on the processing

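Embryos of the 2 genotypes share a litter but are not otherwise paired, so no paired analysis was run and litter is in the model instead. For genotype, 0 identity genes passed in the main fit (2.99% of all genes). With no expression filter 4 did (*Pax2*, *Lbx1*, *Slc32a1*, *Slc6a11*, 6.25%), with DESeq2 2 (8.3%) and with ganglion markers as covariate 2 (6.01%). With pan-neuronal genes as covariate 1 passed (*Slc6a11*, 3.12%), in litter 2 alone 1 (*Pax2*, 5.13%), and 0 to 3 when 1 embryo was left out. The 3 (*Pax2*, *Lbx1*, *Slc32a1*) came without *Dot1l*-cKO embryo 7 of litter 1 (7.01%), and 1 (*Slc6a11*) without embryo 3 (2.66%). For litter, where 6 passed, 3 did without both *Dot1l*-cKO embryos of litter 2 (21.7% of all genes) and 8 with library size only (34.7%), which added *Lbx1* and *Slc6a5*. With 1 embryo left out 5 or 6 passed, *Gad1* being lost without *Dot1l*-cKO embryo 4 of litter 2 (28.7% of all genes) and *Pax8* without embryo 6 (29.5%). Among the controls, where 3 passed, 2 to 4 did, *Gad2* being lost without control embryo 5 (16%) or 7 (10.4%) of litter 2 and *Lhx5* added without *Dot1l*-cKO embryo 3 of litter 1 (26.2%). With progenitor markers as covariate 0 passed (edgeR, 3 at an unadjusted p below 0.05, and 0.774% of all genes passing), but that sum does not overlap between the litters, so the fit cannot tell it from litter and shows nothing of these genes. Within litter 1, 1 passed with no filter (3.96% of all genes), 1 with DESeq2 (3.98%), and 0 to 1 with 1 embryo left out (the 1 without *Dot1l*-cKO embryo 3, 3.31%). Within litter 2, 2 passed with no filter (3.79%), 1 with DESeq2 (3.58%) and 1 in litter 2 alone (5.13%). Over all genes, the 591 genotype calls became 2201 with no filter, 1492 with DESeq2, 0 without litter in the model (edgeR, 1935 at an unadjusted p below 0.05), 1189 with ganglion markers as covariate, 12 in litter 1 alone, 964 in litter 2 alone and 77 without both *Dot1l*-cKO embryos of litter 2. With 1 embryo left out they ran from 53 (without *Dot1l*-cKO embryo 6 of litter 2) to 1377 (without *Dot1l*-cKO embryo 7 of litter 1). The cause was not tested.

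Some signs turned. The genotype log2 fold change of *Gad1* was 0.075 in litter 1 alone, 0.072 without both *Dot1l*-cKO embryos of litter 2, and -0.097 to 0.012 with 1 embryo left out. For litter, *Pax2* was at -0.0081 with library size only, -0.64 with progenitor markers, -0.14 without both, and -0.083 to 0.096 with 1 embryo left out. *Slc32a1* was at -0.028, -0.32, -0.058, and -0.039 to 0.076 in the same order. With progenitor markers, *Pax8* was at -0.055, *Lhx5* at -0.23 and *Gad1* at 0.19, against called values of 0.22, 0.30 and -0.28 without them. The ratio of *Lhx5* to *Lhx1* was -0.0022 in litter 1 alone, where 6 embryos allow no small p, and 0.0048 to 0.072 with 1 embryo left out. That of *Pax2* to *Lmx1b* ran from -0.19 to 0.0084 and that of *Slc32a1* to *Slc17a6* from 0.25 to 0.35. Of the values for single genes, 398 kept their direction and their side of the threshold, 18 turned sign, 16 came to pass and 8 no longer passed. Of those for counts and ratios, 159 stayed the same, where a count was equal or close to that of the main fit. A further 31 counts moved, 2 ratios turned sign and 2 came to pass.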
